A study of Mus musculus with 9 samples.

Results

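Usp28, its paralog Usp25 and 3 genes that work with or against the USP28 protein, namely Fbxw7, Trp53bp1 and Kdm1a, were followed in left ventricle of diabetic and wild-type mice. These 5 genes were taken by name from the 30128 genes of the expression table, for their known ties to USP28. Earlier results of these data were known when they were chosen. USP28 is a deubiquitinase, an enzyme that takes ubiquitin off other proteins and so spares them from the proteasome. FBXW7 does the reverse: it is the substrate-binding subunit of an SCF ubiquitin ligase and marks phosphorylated proteins such as MYC, JUN and NOTCH for destruction, and USP28 can counter it on some of the same proteins. USP28 also binds 53BP1, the DNA-break protein made by Trp53bp1, can act on p53 together with it, and has been reported to stabilise LSD1, the histone demethylase made by Kdm1a.

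Messenger RNA was sequenced from 9 libraries of left ventricle in 3 groups of 3. The USP28-virus group were db/db mice, which lack a working leptin receptor and become obese and diabetic, given an adeno-associated virus of serotype 9 (AAV9_USP28) that carries USP28 behind the cTnT promoter. That promoter comes from the cardiac troponin T gene and is active in heart muscle cells, so the other cells of the ventricle are not its target. The null-virus group were db/db mice given the same kind of virus without the gene (AAV9_null), and the control group were Wild Type mice for which the labels name no virus. Strain background, age, and whether each library came from its own animal are not given in the labels, so p-values measure the spread between these libraries. Control and null-virus libraries differ in both genotype and virus, and these cannot be told apart here. The labels also do not say which species' USP28 sequence the virus carried, and the gene-level values do not separate its transcripts from those of the mouse gene.

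The table holds RPKM, reads per kilobase of exon scaled to library size, from which whole read counts could be recovered, and the libraries held 35970332 to 56497662 reads. Each of the 5 genes had between 560 and 4068 reads per library, so that counting error alone was between 1.57% and 4.23% of a value; intervals of counting error do not cover the spread between libraries. Values below are RPKM scaled between libraries by a trimmed mean of M values (TMM) unless called deposited. A difference is called when its p-value from limma, adjusted over all 14104 tested genes, is under 0.05, and log2 differences are on the scale of log2(scaled RPKM + 0.1). The defining markers of heart muscle were strongly present, with summed levels of 27800 to 31900 in USP28-virus, 25000 to 37600 in null-virus and 30100 to 34300 in control libraries over 8 genes. Myh6 is the largest part of that sum. Of the 8, 1 (Actc1) fell in each virus group against control and 0 rose, where 6.25% of all tested genes fell with USP28 virus and 12.5% with null virus. Actc1 averaged 781 RPKM with USP28 virus, 561 with null virus and 1710 in control. Ryr2 averaged 51.2, 51.4 and 98.5 and Tnnt2 5570, 7530 and 5810 in those groups, not past the threshold with all 9 libraries. Summed endothelial markers were 255 to 286 in USP28-virus and 303 to 395 in null-virus libraries, against 155 to 180 in control. Most of that sum is Fabp4, a fatty acid carrier, and the other 7 endothelial markers summed to 107 to 122 with USP28 virus, 96.6 to 124 with null virus and 77.5 to 89.8 in control. Of the 8, 4 rose in each virus group against control, where 5.42% of all tested genes rose with USP28 virus and 9.70% with null virus, while Kdr averaged 16 and 12.9 RPKM in those groups and 18.4 in control. Macrophage markers summed to 61.5 to 67.6 in USP28-virus, 65.7 to 89.9 in null-virus and 75.2 to 98.9 in control libraries. Most of that sum is Lyz2, with means of 39.3, 52.6 and 56.3 RPKM. Of the 8 macrophage markers, 1 fell with USP28 virus and 3 with null virus against control, where 6.25% and 12.5% of all tested genes fell. Unlike Lyz2, those that fell with null virus (Cd68, Cx3cr1 and Mrc1) had their lowest means in that group. Fibroblast markers summed to 109 to 120, 98.6 to 110 and 107 to 121 in those groups. Of these 8, 2 fell with USP28 virus and 5 with null virus against control, where 6.25% and 12.5% of all tested genes fell. Pdgfra, Dcn and Tcf21 instead had higher means in both virus groups than in control, not past the threshold with all 9 libraries. Dcn passed with null virus when null-virus replicate 1 was left out (0.41, limma adjusted p = 0.043). Lymphocyte and adipocyte markers were near 0, at no more than 0.43 in sum. Atrial muscle markers summed to 148 to 1430 in USP28-virus, 78.8 to 340 in null-virus and 129 to 200 in control libraries. The highest sum was that of USP28-virus replicate 1, which held 89.5 RPKM of Myl7, the atrial myosin light chain, while the other USP28-virus libraries were listed at 0 and the rest had at most 4.71. Red cell markers summed to 99.3 to 209 with USP28 virus, 117 to 182 with null virus and 129 to 486 in control. In whole tissue, fewer cells of a type and less RNA per cell cannot be told apart, and the part of these cell type differences in the results below was not tested. Replicate 1 of the null-virus group stood apart from the rest: its genes departed from their group means by 0.334 log2 units on average, against 0.145 to 0.213 in the other libraries. In that library short genes were relatively high and long ones low, with a median log2 difference from the other null-virus libraries of 0.27 for exon lengths up to 2 kb and -0.28 for those over 6 kb. For 4 to 6 kb, the class of Usp28, Usp25 and Kdm1a, it was -0.13. Usp28 itself differed by 0.36, Usp25 by -0.83, Kdm1a by -0.28, Fbxw7 by -0.05 and Trp53bp1 by -0.23. The part of exon length in these values was not tested. Most results that rest on null-virus replicate 1 are therefore given with and without it. Without USP28-virus replicate 1, Usp28 differed by 0.44 between USP28 virus and null virus and by -0.22 between USP28 virus and control (limma adjusted p = 0.29 and 0.41).

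Usp28 was lowest on average in null-virus libraries, and Usp25 and Fbxw7 were also below control in diabetic ventricle, while Kdm1a showed no difference past the threshold. By limma, 0 of the 5 genes passed between USP28 virus and null virus, where 0.489% of all tested genes did. At an unadjusted p under 0.05 the count was 1 of 5, for which no share over all genes is given here. Limma voom on recovered reads also called 0, where it called 179 of all tested genes. Against control, 1 gene fell with USP28 virus (Fbxw7), where 6.25% of tested genes fell. Null virus against control had 2 genes that fell (Usp28 and Usp25), where 12.5% of tested genes fell. With both db/db groups pooled, 3 genes fell against control (Usp28, Usp25 and Fbxw7), where again 12.5% of tested genes fell. An F test for any difference among the 3 groups passed for 1 gene, Usp28, where 19.1% of tested genes passed. None of the 5 rose in any of these comparisons under limma. Without null-virus replicate 1, the genes past the threshold numbered 1 between USP28 virus and null virus, 3 with USP28 virus against control, 2 with null virus against control and 3 with both db/db groups. In the same order, that fit called 946, 4133, 4465 and 5076 of all tested genes. With all 9 libraries these were 69, 1647, 3133 and 3105.

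**Figure D1:**
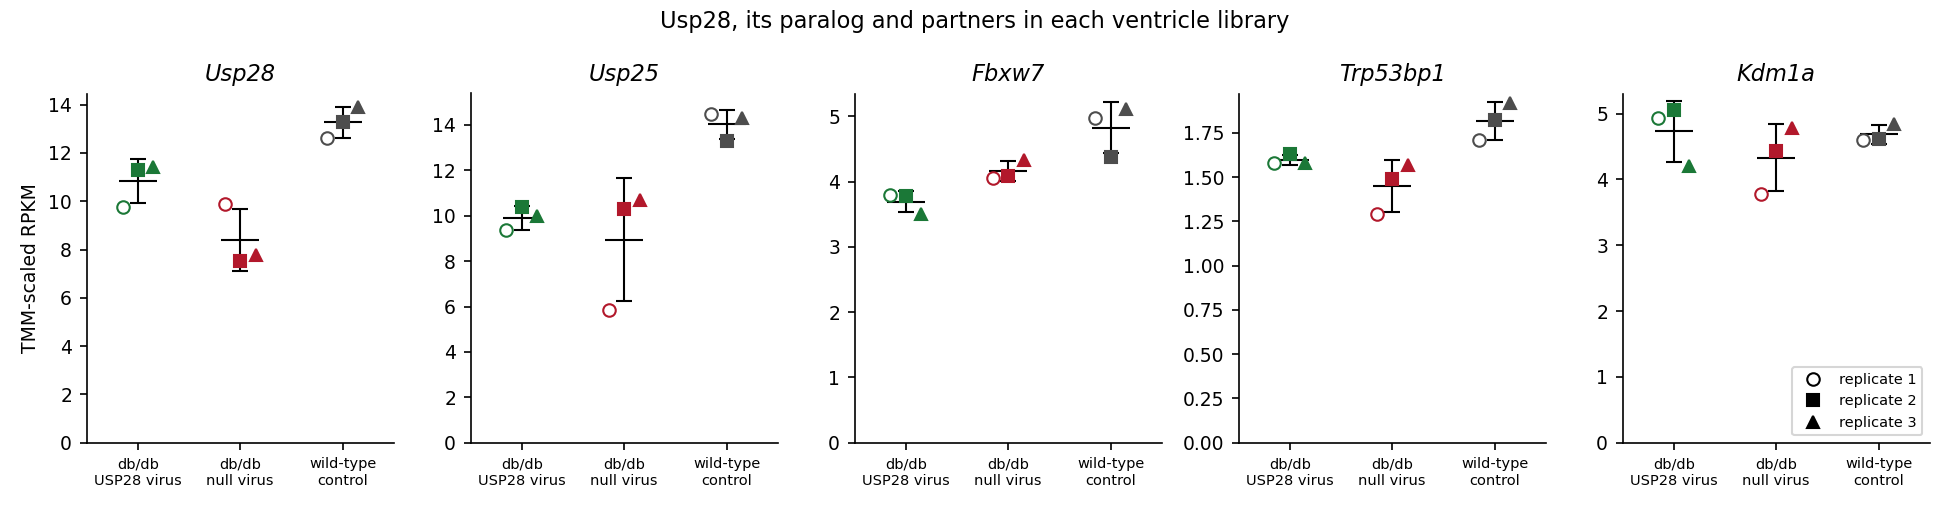
TMM-scaled RPKM of the 5 genes in each library (points, shaped by replicate number), with mean and SD (bars, n = 3), for USP28-virus, null-virus and control ventricles. Control libraries lie above both db/db groups for Usp28, Usp25, Fbxw7 and Trp53bp1 but not for Kdm1a (on deposited values Fbxw7 and Trp53bp1 overlap in part), and null-virus replicate 1 (open circle) is the highest of its group for Usp28 and the lowest for the other 4 genes.

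Usp28 spans chr9:48985375-49042517 on the plus strand of GRCm38, with 26 exons after merging its transcripts and 5832 bases of exon. The 300 bases around its start, from 250 before to 50 after, are shown because Usp28 and Usp25 are paralogs that both fell with null virus, and the windows let their start regions be compared. They are RefSeq sequence of GRCm38.p6, read 5′ to 3′ on the gene's strand, at chr9:48985135-48985434 for Usp28 and chr16:77013819-77014118 for Usp25, both plus. Capitals mark the GC box GGGCGG, searched on both strands.
Usp28: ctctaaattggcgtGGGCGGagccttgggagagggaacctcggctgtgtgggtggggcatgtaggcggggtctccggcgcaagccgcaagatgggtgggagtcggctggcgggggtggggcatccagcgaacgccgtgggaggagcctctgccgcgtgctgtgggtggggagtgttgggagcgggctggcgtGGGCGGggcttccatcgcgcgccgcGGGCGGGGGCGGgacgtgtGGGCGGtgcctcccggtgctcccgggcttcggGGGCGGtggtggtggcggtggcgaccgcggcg
Usp25: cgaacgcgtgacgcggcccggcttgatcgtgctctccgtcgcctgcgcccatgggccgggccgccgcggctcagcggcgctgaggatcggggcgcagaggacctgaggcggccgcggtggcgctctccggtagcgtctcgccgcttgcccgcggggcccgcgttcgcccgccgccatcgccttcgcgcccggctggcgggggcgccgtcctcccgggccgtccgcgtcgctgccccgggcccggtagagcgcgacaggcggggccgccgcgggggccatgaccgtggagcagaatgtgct
The Usp28 window held 6 GC boxes, of which a pair stand end to end, and the Usp25 window held 0; 35.7% of the 32851 promoter windows of the same length hold at least 1. Both windows are rich in G and C, at 74.7% for Usp28 and 79.0% for Usp25 against a median of 52.7%, and hold 35 and 54 CpG dinucleotides against a median of 7. The CCAAT box (CCAAT, in 37.4% of windows, both strands) was found in the Usp28 window only of these 2. Neither held a TATA box (TATAAA, in 13.6%), an E-box (CACGTG, in 7.15%) or an AP-1 site (TGANTCA, in 7.81%) on either strand. These letter matches describe the windows and say nothing about which factors bind there.

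Usp28 levels were 9.77, 11.3 and 11.4 in USP28-virus libraries, 9.87, 7.52 and 7.79 in null-virus libraries, and 12.6, 13.3 and 13.9 in control libraries. The control libraries were the highest, the USP28-virus libraries lay between, and the 2 lowest values were null-virus replicates 2 and 3. Null-virus replicate 1 lay just above the lowest USP28-virus library, so those groups overlapped. These levels rest on 3163, 2735 and 3221 reads with USP28 virus, 1763, 1756 and 2027 with null virus, and 4066, 3304 and 4068 in control.

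Null-virus ventricles averaged 8.4 ± 1.28 and control ventricles 13.3 ± 0.637 RPKM of Usp28 (SD, n = 3 each), so the null-virus mean was 63.3% of control. The log2 difference was -0.66 (SE 0.12, 95% interval -0.94 to -0.39, limma adjusted p = 0.0073), and it stayed past the threshold with any 1 of the 9 libraries left out, between -0.77 and -0.59. All 3 null-virus libraries were below all 3 control libraries, as were 4 of the 5 genes in this comparison, where 22.4% of tested genes were. An exact permutation test of 3 against 3 libraries cannot go below p = 0.1, two-sided, and gave that value.

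USP28-virus ventricles averaged 10.8 ± 0.918 RPKM of Usp28 against 8.4 ± 1.28 in null-virus ventricles (SD, n = 3 each), which is 129% of the null-virus level. The log2 difference of 0.37 had a 95% interval of 0.09 to 0.65 and did not pass across all genes (limma adjusted p = 0.19; exact permutation p = 0.2, two-sided). Leaving out null-virus replicate 1 made it 0.48 with an adjusted p of 0.016, the single left-out library that moved it past the threshold. The levels of that library and of USP28-virus replicate 1 depend on how libraries are scaled. As deposited, with no further scaling, Usp28 had 10.7, 11.4 and 11.4 RPKM with USP28 virus, 8.4, 7.94 and 8.2 with null virus, and 12.3, 13.5 and 13.4 in control. On the deposited values the 3 groups did not overlap, and the difference between USP28 virus and null virus was 0.44, with limma adjusted p = 0.087. With median-of-ratios scaling, null-virus replicate 1 had 10.2 and USP28-virus replicate 1 had 9.74, and the difference was 0.34 (limma adjusted p = 0.23).

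**Figure D2:**
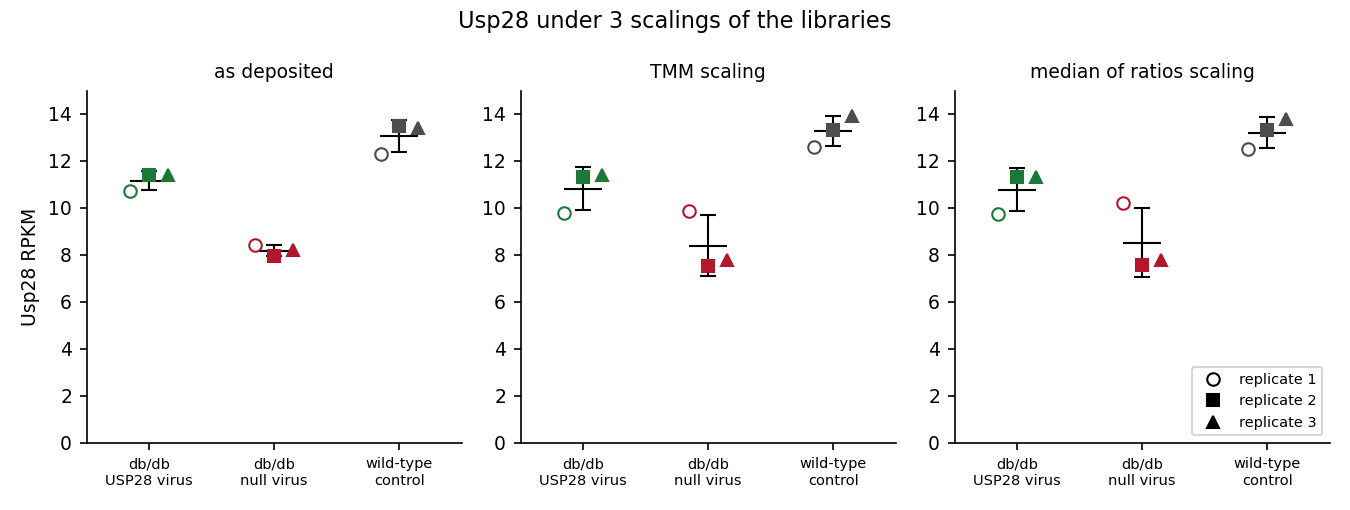
Usp28 RPKM in each library as deposited, after TMM scaling and after median-of-ratios scaling, with mean and SD (n = 3). Null-virus replicate 1 (open circle) is at 8.4 RPKM as deposited, 9.87 after TMM and 10.2 after median of ratios. USP28-virus replicate 1 is at 10.7, 9.77 and 9.74 in that order. With both libraries moved, the USP28-virus and null-virus groups overlap after either scaling but not as deposited.

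USP28-virus ventricles had 10.8 ± 0.918 RPKM of Usp28 against 13.3 ± 0.637 in control (SD, n = 3 each), or 81.7% of control. All 3 USP28-virus libraries were below all 3 control libraries, as they were for 4 of the 5 genes and for 23.7% of tested genes. The log2 difference of -0.29 (95% interval -0.57 to -0.02) missed the threshold over all genes (limma adjusted p = 0.16) and passed without null-virus replicate 1 (adjusted p = 0.021), whose spread enters the shared fit. Measured as a share of the distance between null-virus and control means, the USP28-virus mean stood at 50% of the way after TMM scaling (56.6% without null-virus replicate 1), 48.3% after median-of-ratios scaling and 61.3% on deposited values. With both db/db groups together, Usp28 was lower than control by -0.48 on the log2 scale (SE 0.11, limma adjusted p = 0.014; exact permutation p = 0.036 over 6 against 3 libraries, two-sided). That call was lost without control replicate 2 (-0.46, adjusted p = 0.068) or control replicate 3 (-0.44, adjusted p = 0.077). Over the 3 groups, the moderated F was 14.8 with a limma adjusted p of 0.018 (down to 9.22 and past the threshold no longer without control replicate 2 or 3, with adjusted p up to 0.078), and an exact permutation test gave p = 0.0071, where the smallest possible is 0.0036.

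**Figure D3:**
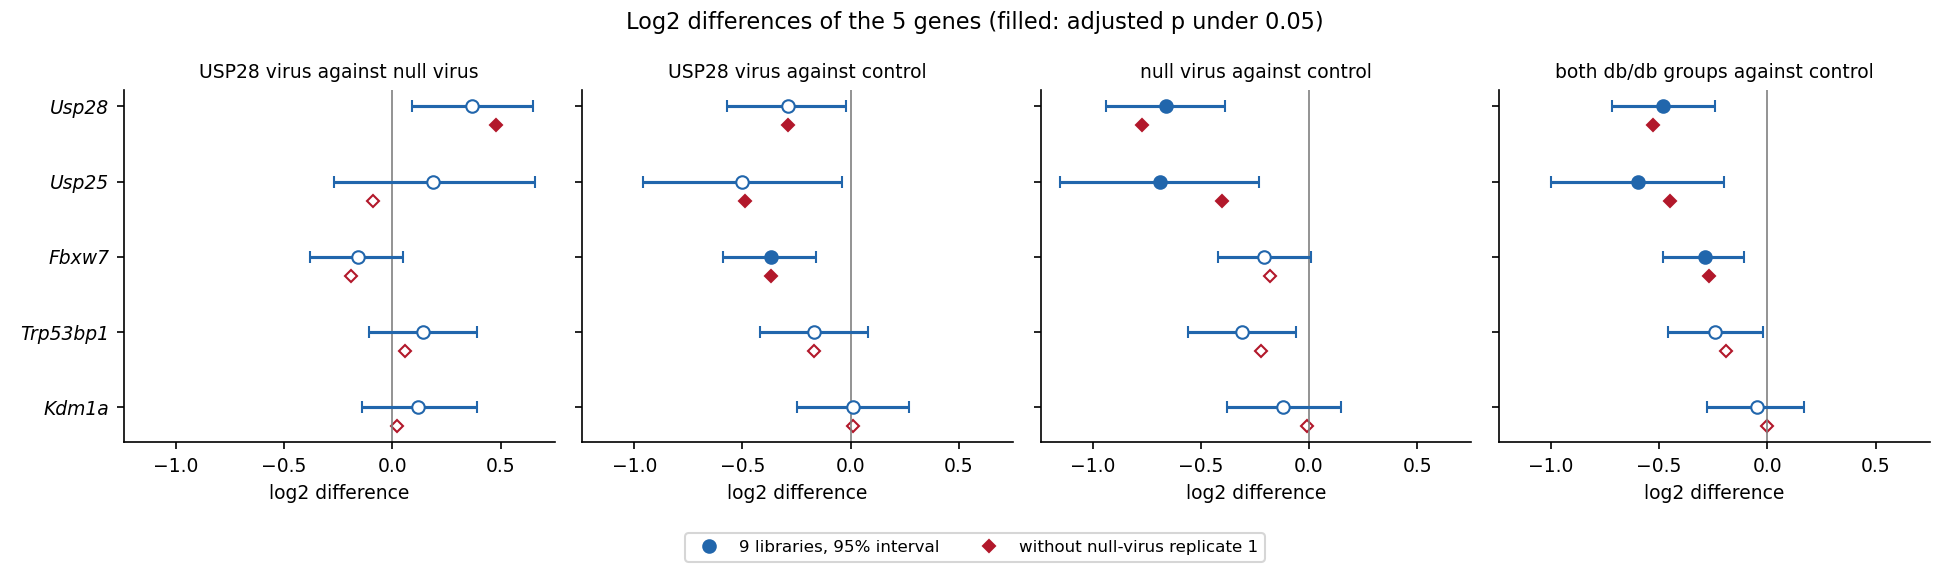
Log2 differences of the 5 genes in 4 comparisons, with 95% intervals from all 9 libraries (circles) and the value without null-virus replicate 1 (diamonds); filled points have a limma adjusted p under 0.05. Usp28 passes against control with null virus (-0.66) and in both db/db groups together (-0.48), and passes between USP28 virus and null virus only when that library is left out (0.48).

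Usp25, the closest paralog of Usp28, encodes a deubiquitinase known from other work to act on tankyrases and on TRAF proteins of cytokine signalling. By the table's coordinates it spans chr16:77014069-77116779 on the plus strand, with 24 merged exons and 4412 bases of exon. Its levels were 9.36, 10.4 and 9.97 RPKM in USP28-virus libraries, 5.85, 10.3 and 10.7 in null-virus libraries, and 14.5, 13.3 and 14.3 in control libraries. Both db/db groups lay wholly below control, and null-virus replicate 1 stood far below the other null-virus libraries, which overlapped the USP28-virus ones.

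Usp25 averaged 8.95 ± 2.7 RPKM with null virus and 14 ± 0.627 in control (SD, n = 3 each). The log2 difference was -0.69 (SE 0.2, limma adjusted p = 0.041). Without null-virus replicate 1 it was smaller, at -0.4, and still past the threshold. The call was lost when any 1 of the 3 USP28-virus or 3 control libraries was left out, with adjusted p up to 0.11. USP28-virus libraries averaged 9.91 ± 0.517 RPKM (SD, n = 3), and their log2 difference from control was -0.5 (limma adjusted p = 0.15), reaching an adjusted p of 0.0015 at -0.49 without null-virus replicate 1. Between USP28 virus and null virus, Usp25 differed by 0.19 (95% interval -0.27 to 0.66, limma adjusted p = 0.65), and by -0.09 without that replicate. With both db/db groups together it was lower than control by -0.6 (SE 0.18, limma adjusted p = 0.042; exact permutation p = 0.012, the smallest possible). As for null virus alone, leaving out any 1 USP28-virus or control library ended this call, with adjusted p up to 0.13. Both Usp25 calls were also lost on deposited values without further scaling, and separately when low values were not filtered. The F test over the 3 groups gave 6.14 (limma adjusted p = 0.081), and 33.2 without null-virus replicate 1 (adjusted p = 0.002). With all libraries the exact permutation test over the 3 groups gave p = 0.032, where the smallest possible is 0.0036.

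Within the family of ubiquitin-specific proteases, of which 40 genes were tested, both paralogs were among the more abundant. By mean RPKM, Usp28 ranked 4 in USP28-virus, 7 in null-virus and 6 in control ventricles, and Usp25 ranked 7, 6 and 5 in those groups. The family median was 2.74 with USP28 virus, 2.51 with null virus and 2.75 in control. With null virus against control, 12 of the 40 family members fell and 1 rose, where 12.5% of all tested genes fell and 9.70% rose, and the family's median log2 difference was -0.22 against -0.005 for all tested genes. Without null-virus replicate 1 the counts were again 12 and 1, around a median of -0.11, while calls over all tested genes went from 3133 to 4465. With all 9 libraries, Usp25 had the 2nd lowest and Usp28 the 4th lowest difference of the 40 for null virus against control. Without null-virus replicate 1 those differences were -0.4 for Usp25 and -0.77 for Usp28, and their ranks are not given here. USP28 virus against control had 1 family member that fell, where 6.25% of all tested genes fell, and 0 that rose. Without null-virus replicate 1, 10 fell and 2 rose, while calls over all tested genes went from 1647 to 4133.

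Fbxw7, the ligase subunit that opposes USP28 on shared substrates, spans chr3:84815268-84979198 on the plus strand with 16 merged exons and 7046 bases of exon. Its levels were 3.79, 3.78 and 3.51 RPKM in USP28-virus libraries, 4.05, 4.09 and 4.33 in null-virus libraries, and 4.98, 4.38 and 5.11 in control libraries. After TMM scaling the 3 groups did not overlap, with USP28-virus libraries lowest, null-virus libraries next and control highest. As deposited, Fbxw7 had 4.17, 3.81 and 3.51 RPKM with USP28 virus, 3.44, 4.31 and 4.56 with null virus, and 4.88, 4.42 and 4.94 in control. On those values null-virus replicate 1 was the lowest of all and the null-virus group overlapped both others, while USP28-virus libraries stayed below control. The order of the scaled means differs from that of Usp28, whose lowest mean was with null virus.

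Fbxw7 averaged 3.69 ± 0.158 RPKM with USP28 virus and 4.82 ± 0.39 in control (SD, n = 3 each), a log2 difference of -0.37 (SE 0.09, limma adjusted p = 0.037). That call rested on the pooled spread of all libraries: it remained without null-virus replicate 1 or 3 and was lost without null-virus replicate 2 (adjusted p = 0.054) or any 1 USP28-virus or control library (adjusted p up to 0.15). Against null-virus libraries, which averaged 4.15 ± 0.153 RPKM (SD, n = 3), USP28-virus libraries differed by -0.16 (95% interval -0.38 to 0.05, limma adjusted p = 0.4), and by -0.09 on deposited values. After TMM scaling Fbxw7 was the only one of the 5 genes whose USP28-virus libraries all lay below the null-virus ones, and 10.9% of tested genes showed that separation. It was absent on deposited values. Null virus against control gave -0.21 (limma adjusted p = 0.14), and both db/db groups together gave -0.29 (limma adjusted p = 0.035; exact permutation p = 0.012, the smallest possible), a call also lost without null-virus replicate 2 or any 1 USP28-virus or control library (adjusted p up to 0.16). On the scaled values the exact permutation test over the 3 groups gave p = 0.0036, also the smallest possible, while the moderated F of 7.79 did not pass (limma adjusted p = 0.055; 9.77 with adjusted p = 0.025 without null-virus replicate 1). Both Fbxw7 calls were also lost on deposited values without further scaling, and separately when low values were not filtered. RefSeq gives Fbxw7 3 start windows, and the gene-level values do not separate transcripts from them.

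Trp53bp1, which encodes the break-repair scaffold to which USP28 binds, spans chr2:121193281-121271407 on the minus strand with 35 merged exons and 14164 bases of exon. Of these, 2130 bases lie under exons of the antisense gene Tubgcp4, which encodes a gamma-tubulin complex protein. Whether reads were counted by strand is not stated, so reads of the 2 genes may be mixed. Trp53bp1 had 1.58, 1.63 and 1.58 RPKM in USP28-virus libraries, 1.29, 1.49 and 1.57 in null-virus libraries, and 1.71, 1.82 and 1.92 in control libraries. After TMM scaling every db/db library was below every control library, and the USP28-virus libraries lay above the null-virus ones by a margin smaller than counting error at its closest, a separation that 12.3% of tested genes showed. As deposited, Trp53bp1 had 1.74, 1.65 and 1.58 RPKM with USP28 virus, 1.1, 1.57 and 1.65 with null virus, and 1.67, 1.84 and 1.85 in control. USP28-virus libraries then overlapped both other groups, and the null-virus ones stayed below control.

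Trp53bp1 differed by -0.31 between null virus and control (95% interval -0.56 to -0.06, limma adjusted p = 0.076), by -0.17 between USP28 virus and control (adjusted p = 0.35) and by 0.14 between USP28 virus and null virus (adjusted p = 0.54), none of them past the threshold. With both db/db groups together the difference was -0.24 (limma adjusted p = 0.11; exact permutation p = 0.012, the smallest possible). After TMM scaling, groups that do not overlap in this direction were found for 4 of the 5 genes with both db/db groups against control and for 15.6% of tested genes. On the scaled values the exact permutation test over the 3 groups gave p = 0.0036 for Trp53bp1, as for Fbxw7 the smallest possible. Its moderated F of 3.88 did not pass (limma adjusted p = 0.15). Tubgcp4 had 0.869, 0.827 and 0.834 RPKM with USP28 virus, 0.739, 0.988 and 1.2 with null virus, and 1.21, 1.25 and 1.35 in control. It too was below control in every db/db library, and its part in the Trp53bp1 values was not tested.

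Kdm1a, which encodes the histone demethylase LSD1, spans chr4:136550540-136602723 on the minus strand with 20 merged exons and 5179 bases of exon. Its levels were 4.93, 5.06 and 4.2 RPKM in USP28-virus libraries, 3.78, 4.44 and 4.78 in null-virus libraries, and 4.6, 4.61 and 4.85 in control libraries. The 3 groups overlapped in every pairing, and the control libraries lay within the range of the db/db ones. USP28 virus and control differed by 0.01 on the log2 scale, with a 95% interval of -0.25 to 0.27 (limma adjusted p = 0.97), and null virus and control by -0.12 (adjusted p = 0.5). USP28 virus and null virus differed by 0.12 (limma adjusted p = 0.6), and the exact permutation test over the 3 groups gave p = 0.49.

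RPKM is per length, so levels of the 5 genes can be set beside each other. In USP28-virus ventricles the order was Usp28 at 10.8, Usp25 at 9.91, Kdm1a at 4.73, Fbxw7 at 3.69 and Trp53bp1 at 1.6 RPKM. Usp28 and Usp25 overlapped there, while all Kdm1a values lay above all Fbxw7 values. In null-virus ventricles, Usp25 at 8.95 overlapped Usp28 at 8.4, and Kdm1a at 4.33 overlapped Fbxw7 at 4.15. In control ventricles, Usp25 at 14 again overlapped Usp28 at 13.3, and Fbxw7 at 4.82 overlapped Kdm1a at 4.69, with Trp53bp1 lowest in every group.

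Ratios between 2 genes of the same library do not depend on how libraries are scaled. Usp28 over Fbxw7, the deubiquitinase over the ligase subunit it opposes, was 2.58, 3 and 3.24 in USP28-virus libraries, 2.44, 1.84 and 1.8 in null-virus libraries, and 2.53, 3.04 and 2.71 in control libraries. Every null-virus library was below every library of the other groups, and USP28-virus and control libraries overlapped. Null-virus replicate 1, at 2.44, lay above the other null-virus libraries and just below the lowest control library, at 2.53. The mean ratio was 2.94 ± 0.336 with USP28 virus, 2.03 ± 0.358 with null virus and 2.76 ± 0.263 in control (SD, n = 3 each). On the log2 scale it was 0.54 higher with USP28 virus than with null virus and 0.46 to 0.68 higher with any 1 library left out (exact permutation p = 0.1, the smallest possible for 3 against 3). USP28 virus and control differed by 0.09 (exact permutation p = 0.5). Over the 3 groups the exact permutation p was 0.025, or 0.1 after Benjamini-Hochberg adjustment over the 4 ratios computed.

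In the other 3 ratios, too, null-virus replicate 1 lay above the other null-virus libraries. Usp28 over Usp25 was 1.04, 1.09 and 1.14 in USP28-virus libraries, 1.69, 0.733 and 0.725 in null-virus libraries, and 0.868, 1 and 0.968 in control libraries. The null-virus group held both the highest value and the 2 lowest. All 3 USP28-virus libraries had a ratio above 1 and above every control library, by 0.21 in log2 (exact permutation p = 0.1, the smallest possible), and over the 3 groups p was 0.83. Usp28 over Kdm1a was 1.98, 2.24 and 2.71 with USP28 virus, 2.61, 1.69 and 1.63 with null virus, and 2.73, 2.89 and 2.86 in control. It was below control in every db/db library, by -0.43 in log2 (exact permutation p = 0.036, two-sided) and by -0.5 to -0.35 with any 1 library left out. Over the 3 groups the exact permutation p was 0.075, or 0.15 after adjustment over the 4 ratios. Usp28 over Trp53bp1 was 6.18, 6.94 and 7.19 with USP28 virus, 7.65, 5.05 and 4.98 with null virus, and 7.37, 7.33 and 7.22 in control (exact permutation p = 0.22 over the 3 groups).

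**Figure D4:**
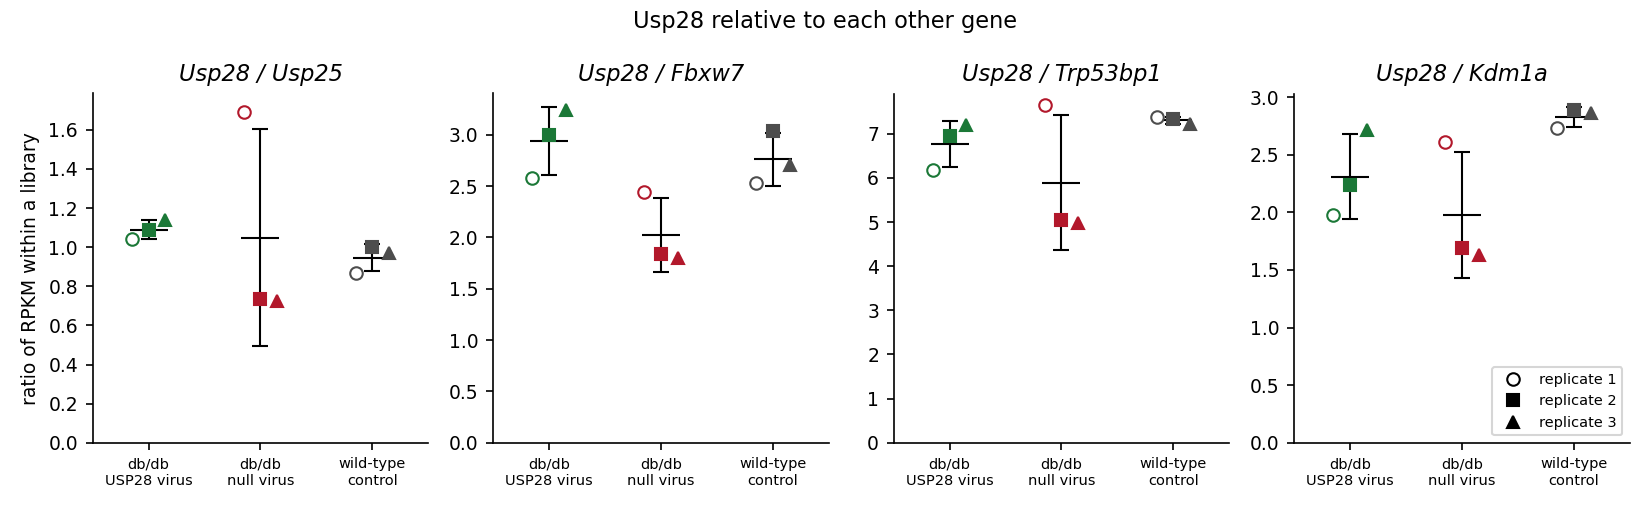
Ratio of Usp28 to each of the other 4 genes within a library (RPKM over RPKM, no unit), with mean and SD (n = 3). For Usp28 over Fbxw7 the null-virus libraries (1.8 to 2.44) lie below all USP28-virus and control libraries. In every ratio null-virus replicate 1 (open circle) lies above replicates 2 and 3.

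Genes with a similar profile over the 9 libraries were sought among those with a mean of at least 2 RPKM, by the root mean square difference of mean-centred log2 values. Null-virus replicate 1 is among these libraries, and no search without it is given here. A gene with no change at all would lie at 0.296 from Usp28, 0.373 from Usp25, 0.167 from Fbxw7, 0.147 from Trp53bp1 and 0.12 from Kdm1a. For Usp28 the nearest of 6760 genes were Rilpl1 (0.068), a regulator of vesicle and cilium traffic, Pacsin2 (0.073), a membrane-bending protein of endocytosis, Dnajc11 (0.074), a mitochondrial chaperone-family protein, Smap2 (0.081), an Arf GTPase activator, and Tnfaip8 (0.084), and the median gene was at 0.359. Pacsin2 averaged 71.6 RPKM with USP28 virus, 55.9 with null virus and 89.5 in control. For Usp25 the nearest were Ubr3 (0.044), a ubiquitin ligase, Dpp8 (0.052), a dipeptidyl peptidase, and Usp32 (0.056), another deubiquitinase of the same family. Fbxw7 was nearest to Echs1, an enzyme of mitochondrial fatty acid breakdown, Fnta, a subunit of farnesyltransferase, and Pnrc2, a messenger RNA decay factor, at 0.042 to 0.07. Trp53bp1 was nearest to Ino80dos, Gmps (guanine nucleotide synthesis) and Lrp6 (a Wnt co-receptor), at 0.041 to 0.053, and Kdm1a to Wasl (actin assembly), Ikbip and Dhx30 (an RNA helicase), at 0.046 to 0.063.

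The lists set beside these 5 genes held 85 other genes, of which 69 were tested. Besides partners, substrates and p53 targets they include Ppara and Mfn2, which were taken for the subject of the study's title. With USP28 virus against null virus, 1 rose (Mfn2) and 1 fell (Cdkn1a) by limma, where 0.333% of all tested genes rose and 0.156% fell. Limma voom called 3 of the list genes and 179 of all tested genes. At an unadjusted p under 0.05 there were 16 list genes. The matching number over all genes is not given here, so this and the later counts at an unadjusted p cannot be read as an excess. With USP28 virus against control, 3 rose and 7 fell, where 5.42% of all tested genes rose and 6.25% fell. Null virus against control had 7 that rose and 16 that fell, where 9.70% of all tested genes rose and 12.5% fell. Without null-virus replicate 1 these counts were 3 and 6 for USP28 virus against null virus, 9 and 16 for USP28 virus against control, and 13 and 18 for null virus against control, higher and lower in that order. For the same comparisons that fit called 946, 4133 and 4465 of all tested genes, against 69, 1647 and 3133 with all libraries. These all-gene counts also stand beside the list counts given below without that library. Among the genes named below, Mdm2, Ccng1, Bbc3 and Ube2m then also fell with USP28 virus against null virus. Gsk3b, Ppargc1a, Rnf168, Mdm2, Kdm1b, Tnks and Ppara then also fell with USP28 virus against control, and Myc, Jun and Trp53inp1 rose (limma adjusted p up to 0.046). Calls of null virus against control that passed in all 19 alternative fits, each left-out library included, were those of Uba3, Kmt5a, Cdkn1a, Kdm1b, Traf3, Tnks, Ppara and Mfn2, and with USP28 virus against control that of Kmt5a. The other calls named below were lost in at least 1 of these fits.

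Among 11 tested genes of the SCF ligase that FBXW7 belongs to and the machinery that activates or primes it, 1 rose and 3 fell with null virus against control, and their median log2 difference was -0.03, beside -0.005 over all tested genes. With null-virus replicate 1 left out, 1 rose and 4 fell. Uba3, a subunit of the enzyme that starts cullin neddylation, averaged 3.47 ± 0.351 RPKM with null virus and 5.32 ± 0.0607 in control (SD, n = 3 each), a log2 difference of -0.61 (limma adjusted p = 0.0046). Gsk3b, the kinase that primes many FBXW7 substrates, fell by 0.72 (adjusted p = 0.015), and Fbxw11, a related substrate receptor, fell by 0.48 (adjusted p = 0.033). Ube2m, the enzyme that passes NEDD8 on, rose by 0.38 (adjusted p = 0.035). With USP28 virus against control, Uba3 fell by 0.58 (limma adjusted p = 0.011) and Fbxw11 fell by 0.6 (adjusted p = 0.024). Between USP28 virus and null virus 0 of the 11 passed by limma or by voom, with 1 at an unadjusted p under 0.05.

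Of 10 tested genes whose proteins are known substrates of FBXW7, USP28 or both, 1 rose and 1 fell with null virus against control, around a median of -0.13. Leaving out null-virus replicate 1 gave 3 that rose and 1 that fell, around -0.07. Myc, the oncoprotein gene best known in both roles, had 1.15, 1.14 and 0.841 RPKM in USP28-virus libraries, 2.11, 1.14 and 1.02 in null-virus libraries, and 0.319, 0.65 and 0.716 in control libraries. It rose with null virus against control by 1.2 (limma adjusted p = 0.03) and differed by 0.84 between USP28 virus and control (adjusted p = 0.13, or 0.041 without null-virus replicate 1). Ppargc1a, the coactivator that drives mitochondrial gene expression, fell with null virus by 0.75 (limma adjusted p = 0.031). Jun, a component of the AP-1 transcription factor, had 24.5, 23.4 and 21 RPKM with USP28 virus, 19.9, 15.4 and 16.9 with null virus, and 13.6, 14.2 and 19.7 in control. Its USP28-virus libraries were above all others, by 0.55 over control, which missed the threshold (limma adjusted p = 0.056). Between USP28 virus and null virus 0 of the 10 passed by limma or voom, with 2 at an unadjusted p under 0.05.

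Around 53BP1, 15 genes of break signalling were tested, of which 1 rose and 4 fell with null virus against control, with a median of -0.37. In a fit that omitted null-virus replicate 1, 1 rose and 3 fell, and the median was -0.18. Kmt5a, a histone H4 lysine methyltransferase, had 23.7, 31.5 and 31.2 RPKM with USP28 virus, 25.4, 30.9 and 31.6 with null virus, and 53.6, 56.8 and 56.9 in control. Both db/db groups were well below control and overlapped each other. Its log2 difference was -0.96 with USP28 virus (limma adjusted p = 0.0059) and -0.93 with null virus against control (adjusted p = 0.0029). Rnf168, the ligase that ubiquitinates histones at breaks, fell with null virus by 0.57 (limma adjusted p = 0.017), Mre11a, a nuclease that senses breaks, fell by 0.62 (adjusted p = 0.02), and Mdc1, an adaptor at breaks, fell by 0.38 (adjusted p = 0.039; -0.29 with adjusted p = 0.054 without null-virus replicate 1). H2afx, the histone variant phosphorylated at breaks, rose by 0.53 (adjusted p = 0.023). Between USP28 virus and null virus 0 of the 15 passed by limma or voom, with 1 at an unadjusted p under 0.05.

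Trp53 itself, the p53 gene, averaged 1.1 ± 0.14 RPKM with USP28 virus, 0.81 ± 0.0881 with null virus and 0.931 ± 0.0788 in control (SD, n = 3 each) and passed in no comparison. Mdm2, which encodes the main p53 ligase, also passed in none with all 9 libraries. Without null-virus replicate 1 it fell with USP28 virus against null virus (-0.33, limma adjusted p = 0.032) and against control (-0.27, adjusted p = 0.013). Of 14 tested genes of the p53 list, 4 rose and 1 fell with null virus against control, with a median of 0.24. Leaving out null-virus replicate 1, 4 rose and 2 fell around 0.08, and 4 fell with USP28 virus against null virus, where 1 fell with all libraries. Cdkn1a, the cell cycle inhibitor p21, had 3.66, 2.86 and 3.15 RPKM in USP28-virus libraries, 5.68, 8.32 and 7.03 in null-virus libraries, and 2.77, 2.9 and 3.05 in control libraries. All null-virus libraries were above the rest, and USP28-virus and control libraries overlapped. It rose by 1.23 with null virus against control (limma adjusted p = 0.0016) and fell by 1.09 with USP28 virus against null virus (adjusted p = 0.031). This fall also passed without null-virus replicate 1 (-1.24, adjusted p = 0.0027) and was lost with any other library left out (adjusted p up to 0.16). The other rises with null virus were Bbc3 (0.6, adjusted p = 0.025), the cell death gene Puma, Mdm4 (0.42, adjusted p = 0.034), a p53 inhibitor, and Trp53inp1 (0.94, adjusted p = 0.046), a p53-induced stress protein. Mdm4 also rose with USP28 virus against control (0.46, limma adjusted p = 0.037). It differed by 0.04 between USP28 virus and null virus (adjusted p = 0.89). Ccng1, cyclin G, went the other way and fell by 1.11 with null virus (limma adjusted p = 0.029) and by 1.41 with USP28 virus (adjusted p = 0.02) against control. Without null-virus replicate 1 its fall with null virus was by 0.7, and it also fell by 0.7 with USP28 virus against null virus (limma adjusted p = 0.017). Btg2, an antiproliferative gene, had 9.7, 14 and 6.77 RPKM with USP28 virus, 4.82, 4.17 and 4.33 with null virus, and 2.48, 3.51 and 5.14 in control, and it rose by 1.43 with USP28 virus against control (limma adjusted p = 0.02).

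**Figure D5:**
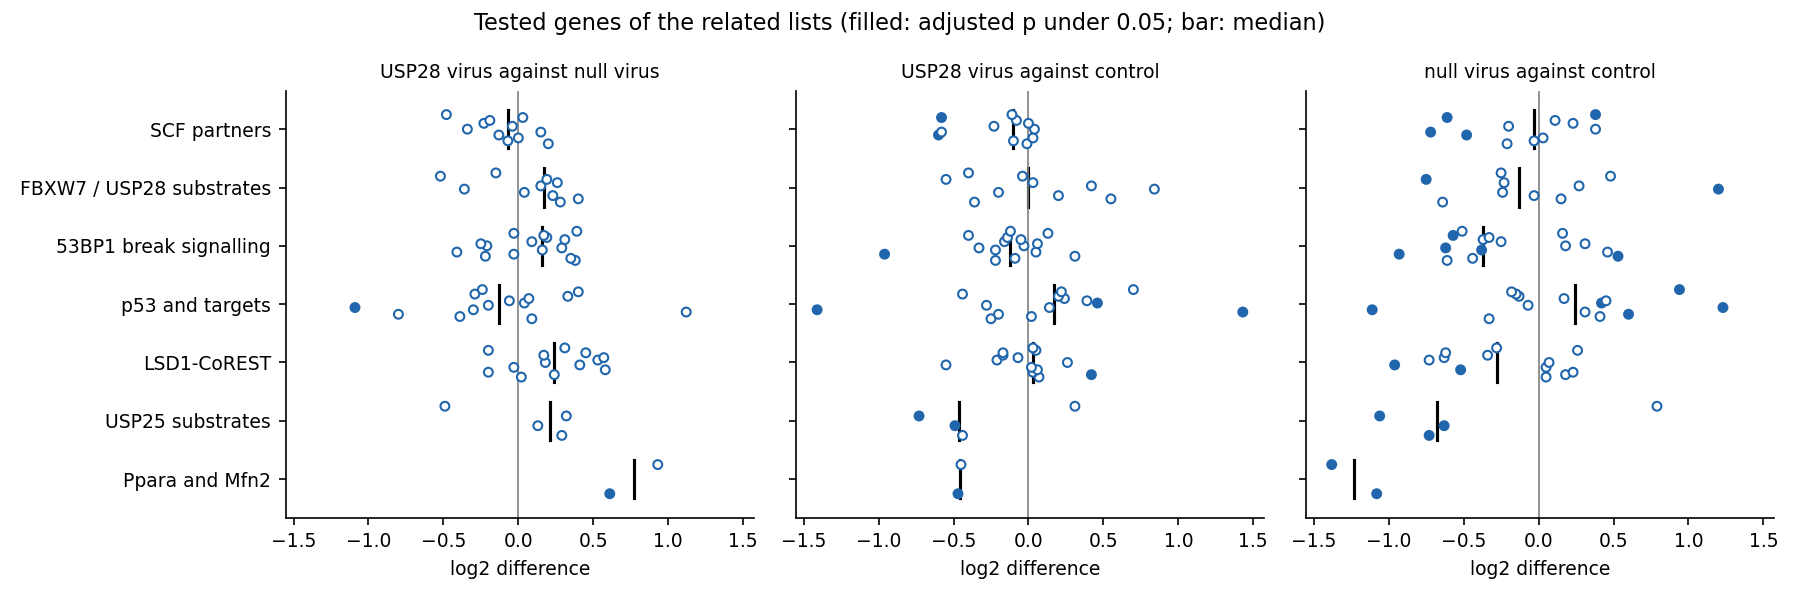
Log2 differences of every tested gene of the 7 related lists (circles; filled where the limma adjusted p is under 0.05) with each list's median (bar). Filled points are most numerous for null virus against control, and Cdkn1a (-1.09) and Mfn2 (0.61) are the filled points between USP28 virus and null virus.

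Of 13 tested genes of the LSD1 and CoREST complex with its recruiters, 2 fell and 0 rose with null virus against control, around a median of -0.28. The counts were 3 and 3 without null-virus replicate 1. Kdm1b, the second flavin-dependent histone demethylase and paralog of Kdm1a, had 1.33, 1.63 and 1.84 RPKM with USP28 virus, 0.967, 1.17 and 1.4 with null virus, and 2.2, 2.51 and 2.39 in control. Every db/db library was below every control library, with a fall of 0.96 under null virus (limma adjusted p = 0.005), in the gene whose paralog Kdm1a showed -0.12. Rcor1, which encodes the CoREST scaffold, differed by -0.73 with null virus (adjusted p = 0.071), and by -0.38 without null-virus replicate 1 (adjusted p = 0.04). Hdac1, the deacetylase of the complex, rose by 0.42 with USP28 virus against control (limma adjusted p = 0.021). Between USP28 virus and null virus 0 of the 13 passed by limma, with 4 at an unadjusted p under 0.05 and 1 higher by voom.

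The substrates known for USP25 gave 3 falls and 0 rises with null virus against control among 4 tested genes. When null-virus replicate 1 was left out, 3 fell and 1 rose. Traf3, an adaptor of interferon induction and a brake on non-canonical NF-kappaB signalling, fell by 1.06 (limma adjusted p = 0.0082). The tankyrase genes Tnks and Tnks2, which modify proteins with poly(ADP-ribose), fell by 0.73 (adjusted p = 0.0062) and 0.63 (adjusted p = 0.012). With USP28 virus against control, Traf3 fell by 0.73 (limma adjusted p = 0.048) and Tnks2 fell by 0.49 (adjusted p = 0.042). Between USP28 virus and null virus 0 of the 4 passed by limma or voom, with 0 at an unadjusted p under 0.05.

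The study's title concerns mitochondrial shape and function, for which Ppara, a transcription factor of fatty acid use, and Mfn2, a fusion protein of the outer mitochondrial membrane, were set beside Usp28. Mfn2 had 61.9, 75.3 and 67 RPKM in USP28-virus libraries, 45.4, 43.5 and 44.4 in null-virus libraries, and 91.8, 93.7 and 96.4 in control libraries. The groups did not overlap, in the order of the Usp28 means. Mfn2 fell by 1.08 with null virus against control (limma adjusted p = 0.00066), rose by 0.61 with USP28 virus against null virus (adjusted p = 0.041) and fell by 0.47 with USP28 virus against control (adjusted p = 0.019). The rise passed without null-virus replicate 1 (adjusted p = 0.0059) and was lost with any other library left out (adjusted p up to 0.17). Ppara had 2, 1.92 and 2.21 RPKM with USP28 virus, 0.638, 1.05 and 1.57 with null virus, and 2.78, 2.93 and 2.75 in control, also without overlap. It fell by 1.38 with null virus against control (limma adjusted p = 0.0069), and the difference of 0.93 between USP28 virus and null virus did not pass (adjusted p = 0.13). Both genes belong to 11 genes of the table with values that do not correspond to whole reads: 2 null-virus values of Mfn2 and 2 USP28-virus values of Ppara. No control value and no value of Usp28, Usp25, Fbxw7, Trp53bp1 or Kdm1a was of that kind, and the origin of such values was not tested.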

How the data were processed

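Left ventricle messenger RNA was read in 9 libraries, grouped by title, genotype and treatment labels. The authors deposited 1 table of RPKM with gene length in bases (exon length), per the file headers and values: RPKM times length gave whole reads within 0.01 reads for 99.9839% of values above 0, which also gave each library's depth. The submitters' processing notes name HISAT2, DESeq2 and GRCh38, a human build; symbols and coordinates are mouse, 25445 of 30128 genes have the spans of GENCODE M21, and positions are given on GRCm38. Neither the counting program nor its strand setting is given in the sources. The 5 genes, the lists and the rules were chosen with earlier results of these data known.

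RPKM was scaled by TMM (30% of ratios and 5% of levels trimmed) computed on recovered reads. A gene was tested if 3 or more libraries held 0.5 RPKM or more, which kept 14104. Tests were on log2(scaled RPKM + 0.1), which understates changes of low genes, in limma 3.58.1 (R 4.3.3; trended, robust prior) over all 9 libraries in 3 groups, with Benjamini-Hochberg adjustment over all genes. The procedure was tested on simulated data with the same spread for all genes and no outlying library. That test does not cover a library like null-virus replicate 1. Single values used exact permutation tests, two-sided. Genes named beside the 5 were up to 4 per list with the smallest adjusted p among those past 0.05, and Trp53, Mdm2, Myc, Jun, Rcor1, Ppara and Mfn2 in any case; Mdc1, Bbc3, Trp53inp1 and Tubgcp4 were added after their values were seen. A gene that the rule names is not reported here. Alternatives were 2 other scalings, scaling without mitochondrial genes, other filters and pseudocounts, fits of 2 groups alone, a replicate block, limma voom on recovered reads and leaving out each library.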

Additional observations from a re-analysis of the deposited data

How the results depend on the processing

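Of the 5 genes' comparisons under all alternatives, 325 of 375 values kept direction and side of the threshold, 39 lost a call, 6 gained one and 5 changed sign. Without scaling beyond the deposited RPKM, Usp25 with null virus (-0.7, adjusted p = 0.097) and in both db/db groups (-0.56) and Fbxw7 with USP28 virus (-0.31) and in both db/db groups (-0.26) lost their calls against control by limma. Without the filter on low values, so with more genes to adjust for, the same 4 calls were lost at -0.69, -0.6, -0.37 and -0.29. Fitting 2 groups alone ended the Usp25 call with null virus (-0.69) and gave calls with USP28 virus against control for Usp28 (-0.29, limma adjusted p = 0.033) and Usp25 (-0.49, adjusted p = 0.0036). Limma voom called Trp53bp1 with null virus (-0.32, adjusted p = 0.048).

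Same-numbered libraries did not deviate together (correlations of -0.03 to 0.06, 5 of 9 libraries closest to their own number), so numbers share no known pairing. With a replicate block, Fbxw7 lost its calls with USP28 virus (-0.37, adjusted p = 0.07) and in both db/db groups (-0.29, adjusted p = 0.062), other calls of the 5 genes were kept, and 0 genes passed between USP28 virus and null virus, against 69 without the block.

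Leaving out each library in turn gave, for Usp28, 0.3 to 0.48 for USP28 virus against null virus, -0.32 to -0.22 for USP28 virus against control, -0.53 to -0.44 for both db/db groups and F of 9.22 to 44.1. Usp25 gave -0.09 to 0.35, -0.53 to -0.46, -0.85 to -0.4 (null virus against control), -0.67 to -0.45 and F of 3.83 to 33.2. Fbxw7 gave -0.43 to -0.33 with USP28 virus against control, -0.35 to -0.24 in both db/db groups and F of 4.38 to 9.77. Kdm1a changed sign around 0, at -0.03 to 0.1 with USP28 virus against control, including -0.02, and -0.09 to 0 in both db/db groups.

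Counts over all genes moved most between USP28 virus and null virus: 69 passed, against 31 on deposited values, 10 without filter, 0 in 2 groups alone, 179 by voom and 0 to 946 with 1 library left out. With USP28 virus against control 1647 passed, against 921 on deposited values, 895 without filter, 3886 in 2 groups alone and 366 to 4133 with 1 library left out. With null virus against control 3133 passed, against 2054 without filter, 1673 in 2 groups alone and 1446 to 4465 with 1 library left out, and with both db/db groups 3105, against 1325 to 5076. Among the 69 tested list genes, leaving out 1 library gave 2 to 13 rises and 8 to 18 falls with null virus against control, 0 to 9 and 1 to 16 with USP28 virus against control, and 0 to 3 and 0 to 6 with USP28 virus against null virus. The cause of these changes was not tested. Scalings moved the median log2 difference of all genes by at most 0.072.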
